A study of Mus musculus with 12 samples.

Results

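The NRF2 pathway was followed through 10 of its genes, Nfe2l2, Keap1, Hmox1, Nqo1, Gclc, Gclm, Txnrd1, Srxn1, Prdx1 and Prdx6, taken by symbol from a table of 30154 genes. All 10 were found, once each, and all 10 passed the filter on low counts. The RNA came from muscle stem cells, the resident precursors of skeletal muscle fibres, sorted by flow cytometry from 3 hind limb muscles of C57BL/6J mice aged 2 to 3 months. The groups were wild type and Sestrin1,2 knockout, each before injury (day 0 here), 7 days after injury and 21 days after injury, with 2 libraries in each of the 6 groups. The labels name neither the kind of injury nor a tissue or stage to which the knockout is limited, and they do not say whether the 2 libraries of a group came from separate animals, so the p-values below measure the spread between these libraries only.

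NRF2, the product of Nfe2l2, is a transcription factor that KEAP1 holds in the cytoplasm and hands to a ubiquitin ligase for degradation. Oxidants and electrophiles modify cysteines of KEAP1, NRF2 then accumulates, pairs with a small MAF protein and binds antioxidant response elements in the promoters and enhancers of its target genes. The proteins made from these targets produce glutathione, reduce thioredoxin and peroxiredoxins, break down haem and reduce quinones. Sestrins are stress-induced proteins that have been linked to the autophagic removal of KEAP1 and to the recovery of over-oxidised peroxiredoxins.

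In the mouse genome (GRCm38, GENCODE M21), Nfe2l2 lies at chr2:75675513-75704641 and Keap1 at chr9:21229730-21239361, both on the minus strand. Hmox1 lies at chr8:75093621-75100589 (plus) and Nqo1 at chr8:107388225-107403206 (minus), Gclc at chr9:77754535-77794485 (plus) and Gclm at chr3:122245557-122270732 (plus). Txnrd1 lies at chr10:82833951-82897712, Srxn1 at chr2:152105516-152111376 and Prdx1 at chr4:116685544-116700822, all plus, and Prdx6 at chr1:161240112-161251219 (minus).

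The core of the antioxidant response element, TGACNNNGC, was searched on both strands of the RefSeq promoter table (GRCm38.p6, 250 bases before to 50 after each start), and the matches are shown because they are the letters through which NRF2 is known to act. No other motif was searched. The table held 9 promoters of 7 of the genes, and 5 of the 9 had a match, against 12.4% of all 32851 promoters. The matches lay in the promoters of Nfe2l2 itself (chr2:75704869-75704913, minus strand), Gclm (chr3:122245397-122245457, plus strand), 1 of 3 promoters of Txnrd1 (chr10:82859088-82859148, plus strand), Srxn1 (chr2:152105552-152105560, plus strand) and Prdx1 (chr4:116685440-116685500, plus strand). Each is written 5′ to 3′ on the strand of its gene, with the match in capitals, and for Srxn1 the match alone is given.
Nfe2l2: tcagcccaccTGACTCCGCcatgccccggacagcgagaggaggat
Gclm: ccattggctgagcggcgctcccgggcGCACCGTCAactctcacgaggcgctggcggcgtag
Txnrd1: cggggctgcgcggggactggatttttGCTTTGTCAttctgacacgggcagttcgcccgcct
Srxn1: GCTAGGTCA
Prdx1: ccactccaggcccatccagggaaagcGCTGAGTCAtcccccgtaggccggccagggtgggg

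The centre of the match lay 236 bases before the start of Nfe2l2, 130 before that of Gclm, 88 before that of Txnrd1 and 129 before that of Prdx1, and 33 bases after that of Srxn1. In Nfe2l2 it was written in the direction of the gene, and in the other 4 genes on the opposite strand. The promoters of Keap1 and Nqo1 had no match within this window, and Hmox1, Gclc and Prdx6 have no entry in the table. A match describes the letters of a window and does not show that the site was bound.

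By TPM, which is scaled by transcript length and so allows genes to be compared, the peroxiredoxins were the most abundant. Prdx1, a thiol peroxidase of the cytoplasm, had a median of 1337 TPM over the 12 libraries (range 1010.1 to 1451), and Prdx6, a peroxidase that also acts on phospholipids, a median of 347 TPM (307 to 382). Hmox1, haem oxygenase 1, followed at 175 TPM (68.3 to 305), Nfe2l2 at 158 TPM (125 to 204) and Gclm, the regulatory subunit of glutamate-cysteine ligase, at 142 TPM (92.3 to 189). Txnrd1, the cytoplasmic thioredoxin reductase, stood at 88.8 TPM, Srxn1, the sulfiredoxin that repairs over-oxidised peroxiredoxins, at 59.6 TPM, Gclc, the catalytic subunit of glutamate-cysteine ligase, at 38.5 TPM, and Keap1 at 27.1 TPM. Nqo1, the NAD(P)H quinone dehydrogenase, was lowest at 10.96 TPM (5.82 to 15.7).

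Among neighbours in this order, the ranges over libraries were separate for Prdx1 and Prdx6, for Prdx6 and Hmox1, and for Keap1 and Nqo1, and overlapped for the other 6 pairs. Hmox1 was above Nfe2l2 in 10 of the 12 libraries and Nfe2l2 above Gclm in 7 of the 12, so the order of these 3 was not the same in all libraries. The genes also differed in how far they moved between libraries. On the CPM scale (estimated counts scaled to library size by TMM), the highest library was 5.08 times the lowest for Hmox1, 3.00 times for Nqo1, 2.70 times for Srxn1, 2.45 times for Txnrd1 and 2.27 times for Gclm, and 1.32 times for Keap1.

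**Figure D1:**
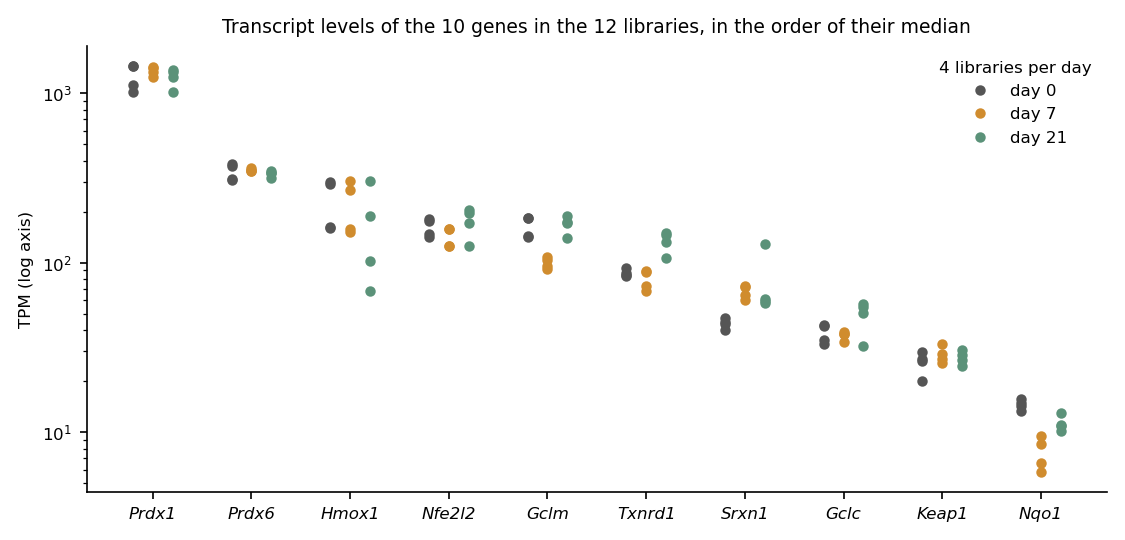
TPM of the 10 genes on a log axis, 1 point per library, coloured by day and ordered by the median. Prdx1 lies at 1010.1 TPM or more in every library, Nqo1 lies between 5.82 and 15.7 TPM, and the points of Hmox1 are spread from 68.3 to 305 TPM.

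The targeted genes were looked at first. Sesn2 had 75.1 and 84.3 CPM in wild-type day 0 libraries and 5.47 and 7.03 CPM in knockout ones, and at day 7 it had 44.9 and 47.4 CPM against 2.36 and 1.92 CPM. Sesn1 was lower by less, 70.3 and 68.6 CPM against 46.0 and 45.8 CPM at day 0 and 84.0 and 67.9 CPM against 28.4 and 22.4 CPM at day 7. At day 21, Sesn2 went against the label of 1 library in each genotype: under the wild-type label it had 8.92 and 82.1 CPM and under the knockout label 9.86 and 108 CPM. Sesn1 had 43.7 and 78.3 CPM in the same wild-type libraries and 41.7 and 67.2 CPM in the knockout ones. For this reason the day 0 and day 7 comparisons were fitted on their own 8 libraries (15672 genes tested), the values of a fit of all 12 (15890 genes) are given beside them, and genotypes at day 21 are given as labelled. In the fit of all 12, Sesn2 itself did not pass edgeR's test between genotypes at day 0 (adjusted p = 0.058) or day 7 (0.17). The SE of its day 7 log2 difference was 1.31 there, against 0.16 with the 8 libraries. Sesn1 passed in that fit at day 7 (0.0301) and not at day 0 (0.144).

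Total estimated counts were 28396862 to 38950614 per library. All 10 muscle stem cell markers, Pax7 among them, were detected in each library, with summed levels of 1348 to 3397 CPM. Genes typical of fibro-adipogenic cells, mainly Dcn, Col1a1 and Col3a1, summed to 8796 to 46491 CPM. In bulk RNA, fewer cells of a type and less RNA per cell cannot be told apart.

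Before injury, 6 of the 10 genes were lower in knockout than in wild-type cells and 1 was higher, at an adjusted p-value under 0.05 by edgeR's quasi-likelihood test. Of all genes tested, 38.9% passed this threshold, 19.4% as lower and 19.5% as higher. The lower genes were Hmox1, Prdx1, Gclm, Prdx6, Nfe2l2 and Srxn1, the higher gene was Gclc, and Keap1, Nqo1 and Txnrd1 did not pass. The median log2 difference of the 10 genes was -0.32, against 0.00 over all genes tested.

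Nfe2l2 had 327 and 341 CPM in the wild-type libraries and 251 and 268 CPM in the knockout libraries, a log2 difference of -0.38 ± 0.06 (SE, adjusted p = 0.00133). Its repressor Keap1 had 42.7 and 51.5 CPM against 51.7 and 51.1 CPM, and the genotypes overlapped. Hmox1, which opens the haem ring, had 311 and 319 CPM in wild type and 161 and 164 CPM in the knockout. This was the largest difference of the 10 genes, -0.97 ± 0.07 on the log2 scale (adjusted p = 5.23e-05), and the knockout libraries lay far below both wild-type ones. Nqo1 had 15.3 and 14.4 CPM against 16.2 and 15.7 CPM (adjusted p = 0.652).

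The subunits of glutamate-cysteine ligase, the enzyme of the first step of glutathione synthesis, differed in opposite directions. Gclm had 132 and 121 CPM in wild type and 91.6 and 89.1 CPM in the knockout (log2 difference -0.50 ± 0.08, adjusted p = 0.00166). Gclc had 94.0 and 89.5 CPM in wild type and 109 and 112 CPM in the knockout (0.25 ± 0.08, adjusted p = 0.0396). For both subunits the genotypes were apart, and the change of Gclc was the smaller.

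In the thioredoxin branch, Txnrd1 had 218 and 221 CPM in wild type and 216 and 237 CPM in the knockout, so the genotypes overlapped. Srxn1 had 95.4 and 90.9 CPM against 82.0 and 74.9 CPM (-0.27 ± 0.08, adjusted p = 0.0306). Prdx1 had 1052 and 1029 CPM against 756 and 687 CPM (-0.55 ± 0.06, adjusted p = 0.000329). Both knockout libraries of Prdx1 lay well under the wild-type ones. Prdx6 had 302 and 301 CPM against 229.98 and 233 CPM (-0.40 ± 0.05, adjusted p = 0.000611). The values of the 2 genotypes did not overlap for 8 of the 10 genes, a state that held for 75.2% of all genes tested.

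With all 12 libraries in the fit, 3 of the 10 genes passed at day 0 (27.4% of all genes), namely Gclm, Prdx1 and Prdx6, while Hmox1 (adjusted p = 0.272) and Nfe2l2 (0.219) did not. The calls of Gclc and Srxn1 were also lost when single libraries were left out, Gclc without any 1 of the 4 day 0 libraries (adjusted p = 0.0939 to 0.186) or either wild-type day 7 library, and Srxn1 without either wild-type library or the second knockout library of day 0 (0.0863 to 0.194). On log2 TPM, Srxn1 was not called either (0.191). Genes of other cell types moved with genotype at day 0 too: the 5 red blood cell genes summed to 877 and 883 CPM in wild type and 204 and 193 CPM in the knockout, the 8 skin and sebaceous genes to 126 and 131 CPM against 4.19 and 4.64 CPM, with Krt5 and Krt14 at 0 in the knockout, and the fibro-adipogenic genes to 15892 and 16108 CPM against 8796 and 9266 CPM. The 9 white blood cell genes found summed to 1775 and 1807 CPM against 2941 and 2906 CPM, nearly all of it from Lyz2, and the other 8 to 9.84 to 11.4 CPM over the 4 libraries. The muscle stem cell genes summed to 2014 and 1974 CPM against 1396 and 1348 CPM, the endothelial genes to 176 and 152 CPM against 199 and 199 CPM, and the muscle fibre genes to 67.0 and 77.5 CPM against 49.9 and 55.1 CPM. Single genes went against these sums. Pdgfra of the fibro-adipogenic list was higher in the knockout (20.8 and 18.6 CPM against 28.6 and 32.8 CPM), the rest of that list lower. Myod1 of the stem cell list was higher (107 and 125 CPM against 156 and 173 CPM), Itga7 overlapped and the rest were lower. Of the endothelial genes Kdr (32.4 and 26.8 CPM against 61.9 and 64.9 CPM), Cdh5 and Tek were higher, Emcn and Egfl7 lower. The 16 genes that tissue dissociation is known to induce summed to 18671 and 19674 CPM against 21383 and 22687 CPM, with 4 higher and 3 lower in the knockout, near the 38.9% of all genes called. The part of these genes in the differences above was not tested.

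**Figure D2:**
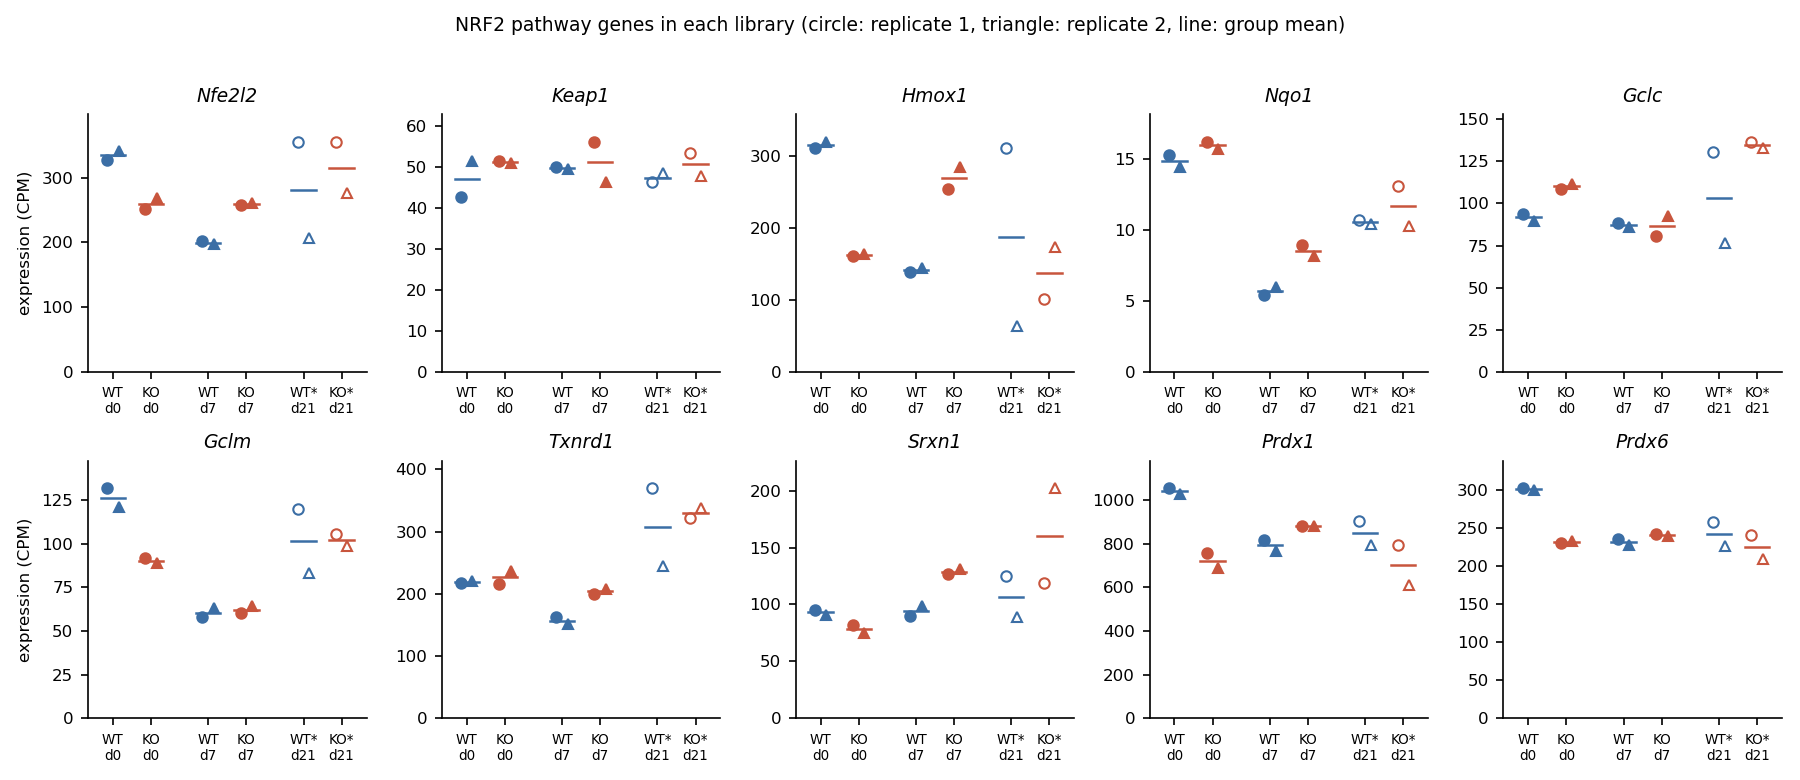
CPM of each gene in each library, by day (d0, d7, d21) and genotype (WT blue, KO red), with lines at the group means. Open symbols and asterisks mark day 21, where Sesn2 goes against 2 labels. Hmox1 is high in wild type at day 0 (311 and 319 CPM) and in the knockout at day 7 (254 and 284 CPM).

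At day 7, during repair, the direction was the other way: 5 of the 10 genes were higher in the knockout and 0 were lower, against 7.46% of all genes called, 4.8% as higher and 2.66% as lower. The higher genes were Hmox1, Nqo1, Srxn1, Nfe2l2 and Txnrd1. The median log2 difference of the 10 genes was 0.26, against 0.00 over all genes.

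Nfe2l2 had 202 and 197 CPM in wild type and 258 and 260.5 CPM in the knockout (log2 difference 0.38 ± 0.06, adjusted p = 0.00635). Keap1 had 50.1 and 49.5 CPM against 56.2 and 46.5 CPM, with the wild-type libraries inside the range of the knockout. Hmox1 had 138 and 143 CPM in wild type and 254 and 284 CPM in the knockout (0.93 ± 0.07, adjusted p = 0.000272), again the largest difference of the 10 genes. Nqo1 had 5.41 and 5.97 CPM against 8.92 and 8.15 CPM (0.58 ± 0.14, adjusted p = 0.0384). It was the least abundant of the genes, and in each genotype its day 7 libraries were below its day 0 libraries.

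Neither subunit of glutamate-cysteine ligase passed the test at this time: Gclc had 88.4 and 86.0 CPM against 80.6 and 92.5 CPM, and Gclm 58.0 and 63.1 CPM against 60.1 and 64.1 CPM, with adjusted p = 0.958 and 0.855. The log2 differences were -0.01 ± 0.08 and 0.03 ± 0.08. Txnrd1 had 163 and 151 CPM in wild type and 199.97 and 208 CPM in the knockout (0.38 ± 0.07, adjusted p = 0.0119). Srxn1 had 89.5 and 98.6 CPM against 127 and 131 CPM (0.45 ± 0.08, adjusted p = 0.0115). In both of these genes of the thioredoxin branch the knockout libraries were above the wild-type ones.

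Prdx1 had 819 and 765 CPM against 883 and 879 CPM (adjusted p = 0.192), and Prdx6 had 235 and 227 CPM against 243 and 239.8 CPM (adjusted p = 0.57). Neither passed the threshold, although the genotypes did not overlap, as was the case for 7 of the 10 genes and 47.9% of all genes.

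With all 12 libraries in the fit, 0 of the 10 genes passed in the day 7 comparison, against 1.76% of all genes. The targeted gene Sesn2 did not pass there either (adjusted p = 0.17 by edgeR). By the edgeR test on the 8 libraries, 6 of the 10 had an unadjusted p-value under 0.05, against 21.3% of all genes. The call of Nqo1 was lost in 7 of the 8 fits that left out 1 library (adjusted p up to 0.186), that of Srxn1 without the first wild-type library of day 7 (0.0869) and that of Txnrd1 without the second (0.0792). Srxn1 was also not called on log2 TPM (0.162), and with day 7 alone in the fit neither Srxn1 (0.0526) nor Txnrd1 (0.0556) was called. Nfe2l2 was not called on the batch-corrected values (0.0872). White blood cell genes summed to 308 and 431 CPM in wild type and 456 and 289 CPM in the knockout at day 7, and without Lyz2 to 66.3 and 117 CPM against 88.2 and 28.4 CPM. Cell type lists whose sums did not overlap between genotypes at day 7 were the muscle stem cell genes (2472 and 2180 CPM in wild type, 2049 and 1999 CPM in the knockout), the fibro-adipogenic genes (37683 and 41398 CPM against 46491 and 42494 CPM) and the skin genes (11.5 and 18.5 CPM against 8.19 and 8.12 CPM). Most of the stem cell gap was Chodl (858 and 743 CPM against 478 and 552 CPM). Pax7, Calcr, Sdc4 and Cxcr4 were lower in the knockout too, and Myf5, Myod1, Vcam1, Itga7 and Cdh15 overlapped. In the fibro-adipogenic list, Pi16 and Cd34 were lower in the knockout, against the direction of the sum. The dissociation genes summed to 9293 and 9628 CPM against 9205 and 8570.1 CPM, and 3 of the 16 were higher and 3 lower in the knockout, against 7.46% of all genes (0 with all 12 libraries). The part of these lists in the differences was not tested.

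From day 0 to day 7, 7 of the 10 genes fell and 0 rose in wild-type cells, against 54% of all genes called, 26.1% as falls and 27.9% as rises. Nqo1 fell most (log2 change -1.43 ± 0.14, adjusted p = 3.72e-05), followed by Hmox1 (-1.20 ± 0.07, adjusted p = 2.18e-06) and Gclm (-1.10 ± 0.08, adjusted p = 6.52e-06). Nfe2l2 fell to 57.8% of its day 0 level (-0.79 ± 0.06, adjusted p = 6.99e-06), and Txnrd1, Prdx1 and Prdx6 to 69.4%, 73.8% and 74.4%. Gclc (-0.12 ± 0.08, adjusted p = 0.255), Srxn1 (-0.03 ± 0.08, adjusted p = 0.786) and Keap1 (0.04 ± 0.11, adjusted p = 0.815) did not pass.

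Of the genes that fell, Prdx1 and Prdx6 lost the call on log2 TPM (adjusted p = 0.0566 and 0.0942 with a pseudocount of 1), a scale on which the median of all genes moved by 0.25, and on which Srxn1 came out as higher at day 7 (0.42, adjusted p = 0.002). In the fit of all 12 libraries 6 of the 10 genes passed (47% of all genes), and Hmox1 did not (adjusted p = 0.147).

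In knockout cells over the same 7 days, 3 genes rose, 3 fell and 4 did not pass, against 54.2% of all genes called (27.6% as rises, 26.6% as falls). Hmox1 rose (0.70 ± 0.07, adjusted p = 4.52e-05), as did Srxn1 (0.69 ± 0.08, adjusted p = 0.000108) and, by less, Prdx1 (0.26 ± 0.06, adjusted p = 0.00596). Nqo1 (-0.93 ± 0.14, adjusted p = 0.000421), Gclm (-0.57 ± 0.08, adjusted p = 0.000344) and Gclc (-0.38 ± 0.08, adjusted p = 0.00386) fell. Nfe2l2 itself had a log2 change of -0.03 ± 0.06 (adjusted p = 0.721), and its day 7 values lay within the range of its day 0 values.

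In the fit of all 12 libraries 3 of these calls were left (46.9% of all genes), those of Srxn1, Nqo1 and Gclm, and the call of Hmox1 was lost (adjusted p = 0.35). On log2 TPM, the call of Gclc was lost (0.0607) and Prdx6 gained a rise (0.195, adjusted p = 0.0138). In both genotypes, the day 0 and day 7 values of 8 of the 10 genes did not overlap, against 80% of all genes in wild type and 76.8% in the knockout. The dissociation genes, such as Fos and Atf3, were mostly lower at day 7. In wild type 16 of 16 fell and in the knockout 14 of 16, against 26.1% and 26.6% of all genes. Fosl1 rose in the knockout (0.27 ± 0.06, adjusted p = 0.00401 by edgeR). With all 12 libraries in the fit 14 and 13 fell, against 47% and 46.9% of all genes called either way. They summed to 18671 to 22687 CPM at day 0 and 8570 to 9628 CPM at day 7. The fibro-adipogenic sum moved the opposite way, to 37683 to 46491 CPM at day 7, mainly through Col1a1 and Col3a1. Pdgfra, Dpt and Pi16 of that list rose too, Dcn and Cd34 fell in both genotypes, and Ly6a overlapped between the days. Dcn went from 7456 and 7299 CPM to 2682 and 2536 CPM in wild type. The muscle stem cell sums went from 2014 and 1974 CPM to 2472 and 2180 CPM in wild type. In the knockout they went from 1396 and 1348 CPM to 2049 and 1999 CPM, and Sdc4 of that list fell in both genotypes. Muscle fibre genes went from 49.9 to 77.5 CPM to 1337 to 2946 CPM. Red blood cell genes went from 877 and 883 CPM to 184 and 245 CPM in wild type and from 204 and 193 CPM to 77.7 and 186 CPM in the knockout. Skin and sebaceous genes went from 126 and 131 CPM to 11.5 and 18.5 CPM in wild type and from 4.19 and 4.64 CPM to 8.19 and 8.12 CPM in the knockout. White blood cell genes went from 1775 to 2941 CPM at day 0 to 289 to 456 CPM at day 7 through Lyz2, and the other 8 went the opposite way, from 9.84 to 11.4 CPM to 28.4 to 117 CPM. The part of these gene lists in the changes of the 10 genes was not tested.

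The difference between the genotypes in the change from day 0 to day 7 was tested directly, as an interaction. It was positive, meaning a change more upward in the knockout, for 7 of the 10 genes at an adjusted p-value under 0.05 and negative for 0, against 24.8% of all genes called (12.8% positive, 12% negative). It was largest for Hmox1, with a log2 difference of 1.91 ± 0.10 (adjusted p = 4.44e-05), since it fell in wild type and rose in the knockout. Nfe2l2 followed with 0.76 ± 0.08 (adjusted p = 0.000671), then Srxn1 with 0.72 ± 0.11 (adjusted p = 0.00334), Prdx1 with 0.70 ± 0.09 (adjusted p = 0.00111), Gclm with 0.54 ± 0.11 (adjusted p = 0.0108), Prdx6 with 0.46 ± 0.07 (adjusted p = 0.00324) and Txnrd1 with 0.35 ± 0.10 (adjusted p = 0.0295).

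Nqo1 (0.50 ± 0.19, adjusted p = 0.0938), Gclc (-0.26 ± 0.12, adjusted p = 0.134) and Keap1 (-0.06 ± 0.16, adjusted p = 0.819) did not pass the interaction test. Prdx1 is the gene for which the interaction also passed with all 12 libraries in the fit (adjusted p = 0.0312), 1 of the 10 against 13.5% of all genes, and there Hmox1 had 0.179 and Nfe2l2 0.123. The call of Txnrd1 was lost without any 1 of 4 libraries (adjusted p = 0.0816 to 0.107), namely either wild-type library of day 0, the first knockout library of day 0 or the second wild-type library of day 7, that of Gclm was lost without the first wild-type library of day 0 (0.0533), and Gclc gained a call without the second knockout library of day 7 (0.0248). On log2 TPM, the calls of Txnrd1 (0.129) and Srxn1 (0.053) were lost as well. Of the 16 dissociation genes, 7 had a positive and 3 a negative interaction, against 12.8% and 12% of all genes. With all 12 libraries in the fit 1 was positive and 2 were negative, against 13.5% of all genes called. The part of these genes in the result was not tested.

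**Figure D3:**
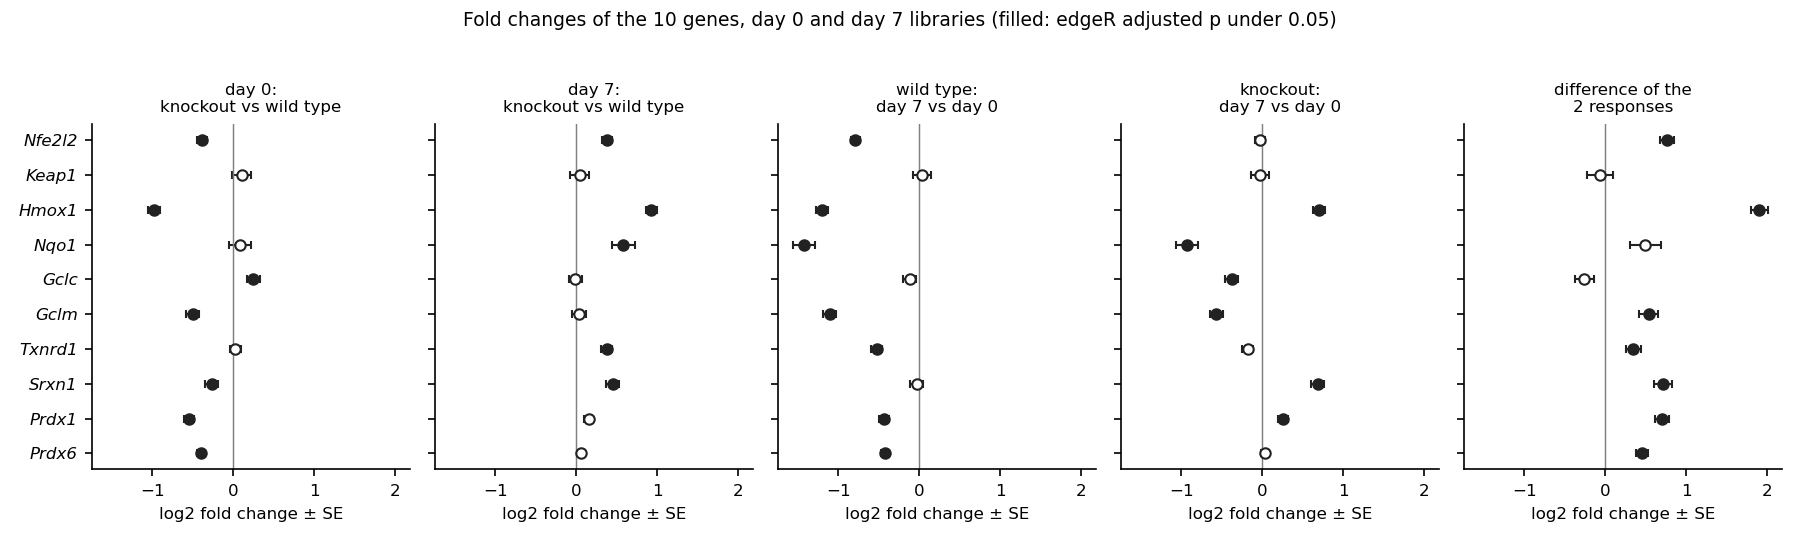
Log2 fold changes of the 10 genes with bars of 1 SE, in the day 0 and day 7 libraries, for both genotype comparisons, both changes from day 0 to day 7 and the difference of these changes. Filled points passed an adjusted p-value of 0.05. The points lie mostly left of 0 at day 0 and right of 0 at day 7, and Hmox1 lies farthest out in the last panel at 1.91.

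Other genes of the pathway were read from 7 lists with 63 genes, of which 62 passed the filter on low counts. At day 0, 28 of the 62 were lower in the knockout and 7 higher, against 19.4% and 19.5% of all genes, with a median log2 difference of -0.23. At day 7, 1 was lower and 9 were higher, against 2.66% and 4.8% of all genes, with a median of 0.10. The change from day 0 to day 7 differed between genotypes in 25, of which 23 were more upward in the knockout, against 12.8% of all genes upward and 12% downward, and the median interaction was 0.31, against 0.03 over all genes tested. With all 12 libraries in the fit these counts were 18 lower and 6 higher at day 0, 0 and 2 at day 7, and 16 upward and 2 downward for the interaction. In that fit 27.4%, 1.76% and 13.5% of all genes were called, and these shares also apply to the single lists below.

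Among the regulators and partners of NRF2, 4 of 12 were lower and 3 higher in the knockout at day 0, against 19.4% and 19.5% of all genes, and with all 12 libraries 1 was lower and 2 higher. At day 7, 2 of the 12 were higher (7.46% of all genes called) and 2 had a positive interaction, below the 24.8% of all genes called, of which all 12 libraries gave 0 and 1. Maff, a small MAF protein that pairs with NRF2, had 228 and 227 CPM in wild type and 152 and 140.4 CPM in the knockout (log2 difference -0.65 ± 0.07, adjusted p = 0.000221), whereas Mafk, another small MAF, was higher (0.33 ± 0.05, adjusted p = 0.00109, and 0.0763 with all 12 libraries). Sqstm1, the autophagy receptor p62 that competes with NRF2 for KEAP1, had 2751 and 2862 CPM in wild type and 2049.8 and 2026 CPM in the knockout at day 0. At day 7 it had 1350.2 and 1326 CPM in wild type and 1655 and 1583 CPM in the knockout (0.27 ± 0.05, adjusted p = 0.0136), a call lost without either wild-type day 7 library (0.0816 and 0.0801) and with all 12 libraries (0.595). Its interaction was 0.75 ± 0.07 (adjusted p = 0.000405), and the interaction call, like that of Hmox1, was lost with all 12 libraries in the fit (0.106). Bach1, a repressor at antioxidant response elements, rose from day 0 to day 7 in wild type (1.10 ± 0.09, adjusted p = 9.95e-06) and in the knockout (1.24 ± 0.09, adjusted p = 4.11e-06).

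Of the 11 tested genes of glutathione synthesis and use, 6 were lower and 0 higher in the knockout at day 0, 3 were higher and 0 lower at day 7, and 6 had a positive interaction. All genes were called at 38.9%, 7.46% and 24.8% in these comparisons, and with all 12 libraries the counts were 3 lower, 0 higher and 5 positive. Gpx4, the peroxidase that reduces lipid hydroperoxides, had 331 and 334 CPM in wild type and 264 and 246 CPM in the knockout at day 0, and 219 and 225 CPM against 288 and 282 CPM at day 7. Its interaction was 0.76 ± 0.08 (adjusted p = 0.000699), and its day 7 call was lost without the first wild-type day 7 library (0.0707) and with all 12 libraries (0.0693). Gpx7, a peroxidase of the endoplasmic reticulum, was lower at day 0 (-0.95 ± 0.09, adjusted p = 0.000146), with 33.9 and 34.5 CPM against 16.8 and 19.2 CPM. Slc7a11, the cystine carrier that feeds glutathione synthesis, was chosen after its values were seen: it had 6.43 and 4.83 CPM against 2.25 and 2.47 CPM at day 0 and 1.75 and 1.58 CPM against 4.44 and 4.19 CPM at day 7, with an interaction of 2.64 ± 0.36 (adjusted p = 0.00162). Its day 0 difference was not called on log2 TPM (0.078), and its day 7 difference was lost without either wild-type day 7 library (0.0719 and 0.0727) and with all 12 libraries (0.0515).

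In the thioredoxin and peroxiredoxin system, 4 of 11 genes were lower and 2 higher at day 0, 2 were higher at day 7, and 4 had a positive and 1 a negative interaction, against 38.9%, 7.46% and 24.8% of all genes called. With all 12 libraries, 3 were lower and 2 higher at day 0, 1 was higher at day 7, and 3 had a positive and 1 a negative interaction. The gene with the negative interaction was Txnip (-0.99 ± 0.09, adjusted p = 0.000378), which codes for an inhibitor of thioredoxin. Txnip had 187 and 188 CPM in wild type and 329 and 311 CPM in the knockout at day 0, the opposite direction to thioredoxin itself, since Txn1 had 165 and 162 CPM against 115 and 94.9 CPM. Glrx, a glutaredoxin, was higher in the knockout at day 7 (0.75 ± 0.10, adjusted p = 0.00404), with 11.8 and 11.9 CPM against 19.4 and 20.4 CPM. It stood higher in the knockout at day 0 already, with 19.0 and 20.2 CPM in wild type against 28.2 and 28.2 CPM. Prdx2, a cytoplasmic peroxiredoxin, had an interaction of 0.52 ± 0.07 (adjusted p = 0.00206), which was not called on log2 TPM (0.114).

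The detoxifying enzymes and transporters, 12 genes, had 7 lower and 1 higher at day 0, 1 each way at day 7, and 6 positive and 1 negative interactions, against the same shares of all genes. In the fit of all 12 libraries these were 6 and 1 at day 0, 1 higher and 0 lower at day 7, and 5 and 1. Mgst1, a membrane-bound glutathione transferase, had 73.3 and 69.6 CPM in wild type and 35.3 and 31.4 CPM in the knockout at day 0 (-1.12 ± 0.11, adjusted p = 0.000141). Akr1b8, an aldo-keto reductase, had 38.7 and 37.2 CPM in wild type and 64.5 and 64.2 CPM in the knockout at day 7 (0.76 ± 0.09, adjusted p = 0.00184), and Ephx1, an epoxide hydrolase, was lower there (-0.40 ± 0.06, adjusted p = 0.00739), a call lost without either wild-type day 7 library (0.0704 and 0.0557) and with all 12 libraries (0.171). Gstm1, a soluble glutathione transferase, fell from day 0 to day 7 by 2.50 ± 0.06 on the log2 scale in wild type (adjusted p = 3.55e-08) and by 1.75 ± 0.06 in the knockout (adjusted p = 6.08e-08). Abcc1, an exporter of glutathione conjugates, was higher in the knockout at day 0 (0.77 ± 0.12, adjusted p = 0.00163) and had a negative interaction (-0.89 ± 0.17, adjusted p = 0.00728).

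Among 6 other genes of haem and iron handling, the setting in which HMOX1 works, 4 were lower and 0 higher in the knockout at day 0, 0 passed at day 7, and 3 had a positive interaction, against 38.9%, 7.46% and 24.8% of all genes called. In the fit of all 12 libraries, 3 of the 4 (27.4% of all genes) and 1 of the 3 (13.5%) were left. Ftl1, the ferritin light chain, had 3271 and 3636 CPM against 2650.1 and 2663 CPM at day 0 and 1887 and 1903 CPM against 2199.8 and 2206 CPM at day 7 (interaction 0.61 ± 0.09, adjusted p = 0.00206). Neither its interaction (0.0949) nor its day 0 difference (0.0882) was called with all 12 libraries in the fit. Slc40a1, the iron exporter ferroportin, rose from day 0 to day 7 by 2.82 ± 0.11 on the log2 scale in wild type (adjusted p = 1.89e-07) and by 3.06 ± 0.11 in the knockout (adjusted p = 9.76e-08), while Fth1, the ferritin heavy chain, fell in both, with changes of -1.51 ± 0.06 (adjusted p = 1.93e-07) and -1.19 ± 0.06 (adjusted p = 4.49e-07). Of 6 enzymes that make NADPH, 2 were lower at day 0 and 0 passed at day 7, counts that are near the shares of all genes called (38.9% and 7.46%), and with all 12 libraries 1 was lower at day 0. Idh1, the cytoplasmic isocitrate dehydrogenase, had the 1 positive interaction of those 6 (0.57 ± 0.12, adjusted p = 0.00966), against 24.8% of all genes called. It was not called on log2 TPM (0.0536). Of 4 superoxide dismutase and catalase genes, Sod1 was lower (-0.48 ± 0.10, adjusted p = 0.00659) and Sod3 higher (0.48 ± 0.07, adjusted p = 0.00132) in the knockout at day 0, 2 of 4 against 38.9% of all genes, and the call of Sod1 was lost without the second knockout library (0.0639). Sod3 was the 1 gene of these 4 called at day 7 (0.34 ± 0.07, adjusted p = 0.027), against 7.46% of all genes. Sod1 was the 1 of the 4 called in the interaction (0.53 ± 0.14, adjusted p = 0.0279), near the 24.8% of all genes. Both calls were lost with all 12 libraries (0.224 and 0.0659) and without either wild-type library of day 7, among others.

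**Figure D4:**
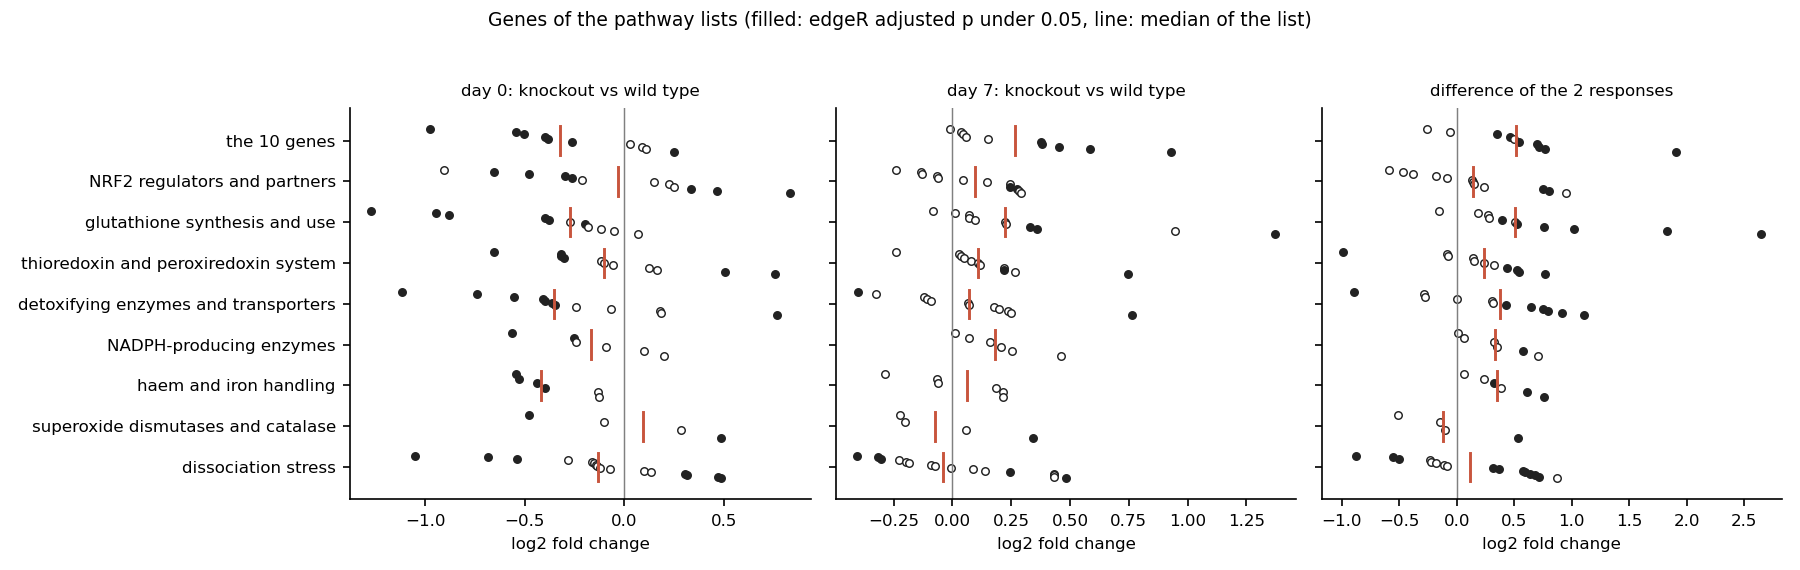
Log2 fold changes of the 10 genes, of the 7 pathway lists and of the dissociation stress genes for the genotype comparison at day 0, that at day 7 and the difference of the changes, 1 point per gene, filled where the adjusted p-value was under 0.05. The line marks the median of each list, which for the 10 genes is -0.32, 0.26 and 0.52. The median of the glutathione genes is -0.27, 0.22 and 0.50.

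At day 21, libraries under 1 label were far apart for several of the 10 genes. Hmox1 had 311 and 62.8 CPM under the wild-type label and 101 and 173 CPM under the knockout label, so the labelled groups overlapped and their difference was within the spread (log2 difference -0.45 ± 0.59, adjusted p = 0.784). This value rested on single libraries, since it was 1.13 (adjusted p = 0.0409) without the first library labelled wild type.

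Other genes also had a wide spread within a label at day 21. Nfe2l2 had 355 and 207 CPM under the wild-type label and 355 and 276 CPM under the knockout label. Srxn1 had 125 and 88.8 CPM against 119 and 202 CPM. Txnrd1 had 369 and 244 CPM against 322 and 338 CPM. In 6 of the 10 genes, Nfe2l2, Hmox1, Gclc, Gclm, Txnrd1 and Srxn1, the second library labelled wild type was the lowest of the 4.

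Gclc had 131 and 76.2 CPM under the wild-type label and 137 and 133 CPM under the knockout label, and Gclm 119.8 and 83.1 CPM against 105 and 98.8 CPM. Prdx1 had 904 and 791 CPM against 792 and 612 CPM, and Prdx6 had 259 and 227 CPM against 242 and 209 CPM. Keap1 ranged from 46.3 to 53.6 CPM and Nqo1 from 10.3 to 13.1 CPM over the 4 libraries.

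By label, 0 of the 10 genes passed the test between genotypes at day 21, against 0.0126% of all genes (0.00629% in each direction). Gclc was the 1 gene of the 10 whose labelled groups did not overlap, against 38% of all genes. The same edgeR test gave 1 of the 10 an unadjusted p-value under 0.05, against 14.2% of all genes, and DESeq2 also called 0 of the 10, against 2.96% of all genes. Without the first library labelled wild type 4 of the 10 were called (5.24% of all genes), and without the first labelled knockout 1 was (1.65%).

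Day 21 was also set against the earlier days over both genotypes. The mean difference does not depend on the genotype labels, but its error does, since the spread at day 21 was taken within labels. With the 4 day 21 libraries as 1 group, 3 of the 10 genes were called against day 0 (43.5% of all genes) and 5 against day 7 (55.6%). Against day 0, Txnrd1 (log2 difference 0.51 ± 0.11, adjusted p = 0.00365) and Srxn1 (0.62 ± 0.16, adjusted p = 0.00983) were higher and Nqo1 was lower (-0.47 ± 0.11, adjusted p = 0.00575), 3 of the 10 genes against 45.9% of all genes. All 4 day 21 libraries lay above all day 0 libraries for Txnrd1 and below them for Nqo1, 2 of the 10 genes against 30.6% of all genes. Against day 7, Txnrd1 (0.83 ± 0.11, adjusted p = 0.000108), Gclm (0.73 ± 0.10, adjusted p = 0.000167), Nqo1 (0.67 ± 0.11, adjusted p = 0.000497), Gclc (0.44 ± 0.14, adjusted p = 0.0189) and Nfe2l2 (0.39 ± 0.15, adjusted p = 0.0437) were higher and 0 were lower, against 56.8% of all genes called. All 4 day 21 libraries lay above all day 7 libraries for Txnrd1, Gclm and Nqo1, 3 of the 10 genes against 46.4% of all genes.

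Hmox1 at day 21 had a log2 difference of -0.50 ± 0.42 from day 0 (adjusted p = 0.368) and of -0.28 ± 0.42 from day 7 (adjusted p = 0.598). Without the first library labelled wild type these became -1.29 (adjusted p = 0.000362) and -1.05 (adjusted p = 0.00062). The call of Nfe2l2 against day 7 was lost in 10 of 12 fits that left out 1 library, and that of Gclc without the second wild-type or the first knockout library of day 7. The log2 difference of Nfe2l2 went from 0.39 to 0.19 without the first day 21 library labelled wild type. Genes of tissue dissociation were back at 18009.5 to 20761 CPM at day 21, and 16 of 16 were higher than at day 7, against 28.4% of all genes. From day 7 to day 21, muscle fibre genes went from 1337 to 2946 CPM to 211 to 511 CPM, the fibro-adipogenic sum from 37683 to 46491 CPM to 22404 to 28968 CPM, and muscle stem cell genes from 1999 to 2472 CPM to 2434 to 3397 CPM. Within the fibro-adipogenic list, Dcn and Cd34 rose over this time. Red blood cell genes went from 77.7 to 245 CPM to 320 to 841 CPM, skin genes from 8.12 to 18.5 CPM to 22.1 to 78.7 CPM, and white blood cell genes from 289 to 456 CPM to 559 to 868 CPM, but without Lyz2 from 28.4 to 117 CPM to 10.8 to 34.4 CPM. Against day 0, the day 21 sums of the muscle fibre, fibro-adipogenic and muscle stem cell genes were all higher and those of the white blood cell genes, Lyz2 included, all lower, the day 0 sums being 49.9 to 77.5, 8796 to 16108, 1348 to 2014 and 1775 to 2941 CPM in that order. The part of these lists in the differences was not tested.

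For the 5 genes that moved by at least 1 on the log2 scale over the 12 libraries, the tested genes with the most similar pattern were found by the root mean square distance of centred log2 CPM over all 12 libraries. Nearest to Nqo1 were Tuba4a (distance 0.13) and Fam134b (0.13), nearest to Gclm were Herpud1 (0.10) and Bdh2 (0.10), and nearest to Txnrd1 were Lhfp (0.10) and Plk3 (0.12). Srxn1 was nearest to Numbl (0.19) and Map2k3 (0.20). Nearest to Hmox1 were Dyx1c1 at 0.34 and 1600002H07Rik at 0.41. The distances are not scaled to a gene's own movement, whose root mean square was 0.70 for Hmox1 and 0.38 for Srxn1.

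Reads of near-identical copies could be shared with 2 of the 10 genes. Prdx1 had 3 near copies in the transcript annotation, each with at most 11.5 estimated counts in a library, against at least 18666 for Prdx1. Gclm had 2 short near copies that are not in the count table, and its exons overlap Gm6061 on the same strand, which had at most 96.7 estimated counts, and Gm17494 on the opposite strand. The exons of Keap1 overlap the antisense gene Gm16754. The library kit is not described as keeping strand, so reads of overlapping genes cannot be told apart.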

How the data were processed

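The authors deposited a table of estimated counts (expected counts, not whole numbers), a table of TPM and a table of batch-corrected log2 values, each with 1 column per library. The submitters' processing notes name kallisto 0.46.1, mm10 and GRCm38.p6 without their roles. Per the labels' protocols, cells were sorted into Trizol, cDNA was made with SMART-Seq v4, and all libraries were pooled for 76-base single-end reads. The batch behind the corrected values is not given in the sources used here.

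Estimated counts were rounded, filtered by filterByExpr and scaled by TMM, and edgeR 4.0.16 (R 4.3.3) quasi-likelihood tests were fitted with 1 mean per group, adjusted by Benjamini-Hochberg over all genes tested and called under 0.05. Day 0 and day 7 comparisons used their 8 libraries and day 21 comparisons all 12. The 10 genes, the lists and the tests were chosen with earlier results of these data known. All 10 genes, Sesn1 and Sesn2 were named by rule, with, per list and comparison of day 0 and day 7, the called gene of smallest adjusted p-value in each direction; a selection is printed. Alternatives were DESeq2 1.42.0, RLE size factors, other filters, a block for the replicate number, all 12 libraries, 1 day alone, the day 21 libraries as 1 group, limma 3.58.1 on log2(TPM + 1 or 0.1) and on the batch-corrected values, and leaving out each library. Log2 TPM moved the median of all genes from day 0 to day 7 by 0.25 in wild type and 0.13 in the knockout with a pseudocount of 1. The test script was checked on simulated data. Near copies were found with BLAST 2.17.0. Replicate numbers did not pair the libraries, since 0 of 15 correlations of deviations between groups were over 0.1 (-0.143 to 0.07). TPM does not keep depth.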

Additional observations from a re-analysis of the deposited data

Results flagged for a closer look

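The change from day 0 to day 7 differed between the genotypes in 7 of the 10 genes by the interaction test itself (edgeR quasi-likelihood test, adjusted p under 0.05), against 24.8% of all genes, with positive values meaning a change more upward in the knockout. With all 12 libraries in the fit, Prdx1 alone of the 10 was called, against 13.5% of all genes, and Hmox1 (adjusted p = 0.179) and Nfe2l2 (0.123) were not. For Hmox1 the difference was 1.91 on the log2 scale. For Nfe2l2 it was 0.76, for Srxn1 0.72 and for Prdx1 0.70. For Gclm it was 0.54, for Prdx6 0.46 and for Txnrd1 0.35.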

How the results depend on the processing

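With 2 libraries per group, the error rests on few residual degrees of freedom (4 for the 8 libraries, 6 for all 12). The values followed over the alternatives were those of the 10 genes, Sesn1, Sesn2 and named genes of the lists. Of these, 1961 kept their direction and side of the threshold, 146 lost their call, 7 gained one and 29 changed sign. Most of the list genes were picked because they were called, so the tally does not describe all genes tested. Causes were not tested. With all 12 libraries in the fit, 3 of the 10 genes were called at day 0, 0 at day 7, 3 in the knockout's change from day 0 to day 7 and 1 in the interaction, and all genes called numbered 280 at day 7 (main count 1169) and 2141 in the interaction (main count 3887). Sesn2 was not called in any of these comparisons of that fit. At day 7, all genes called were 429 with day 7 alone, 686 and 641 on log2(TPM + 1) and log2(TPM + 0.1), and 595 on the batch-corrected values. In the same order, members of the 10 genes called were 2, 3, 3 and 2, and pathway list genes were 3, 5, 5 and 3, with 2 for all 12 libraries and 18 by DESeq2. At day 21 as labelled, the 2 genes called became 471 by DESeq2, 57 without a filter, 23 with at least 10 counts in every library, 0 on log2(TPM + 0.1) and 176 on the batch-corrected values. On the latter, 5 of the 10 genes differed between day 21 and day 0, against 37.4% of all genes.

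With the replicate number as a block, 1 gene was called at day 21 as labelled and, at day 0, 5 of the 10 genes (Gclc 0.0567 and Srxn1 0.0509 by adjusted p in edgeR were lost), against 35.7% of all genes. At day 7, 4 of the 10 were called, against 5.6% of all genes, Nqo1 being lost (0.0689). The numbers share no pairing that the data show, so this is a change of model only.

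Every sign that turned was of a value that had not passed the test, but the turned value passed for Srxn1 in the wild-type change on the TPM scales (adjusted p by limma of 0.002 on both) and for Hmox1 at day 21 as labelled without its first wild-type library. Gclc at day 7 became 0.0047 by DESeq2 and 0.0050 with RLE size factors, and its wild-type change from day 0 to day 7 became 0.151 and 0.155 on the TPM scales. For Srxn1 that change became 0.014 with all 12 libraries, 0.42 and 0.43 on the TPM scales and 0.15 on the batch-corrected values, and for Keap1 -0.0084 on the latter. In the knockout, Keap1 became 0.00028 with all 12 libraries and 0.057 and 0.059 on the TPM scales, and Nfe2l2 0.128 and 0.1285.

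Leaving out 1 library at a time gave 3522 to 6916 genes called at day 0 (5 to 7 of the 10 genes, 22 to 37 pathway list genes), 406 to 1792 at day 7 (3 to 5, and 2 to 16) and 2183 to 4404 in the interaction (5 to 8, and 19 to 31). The wild-type change had 7 of the 10 called in every such fit (40.6 to 56.4% of all genes) and the knockout's 6 to 7 (42.1 to 51.7%). At day 21 as labelled the range was 0 to 865 genes and 0 to 4 of the 10, for day 21 against day 0 3 to 6 (35.1 to 44.7% of all genes) and against day 7 3 to 5 (48.7 to 54.6%). Over these fits, Keap1 ranged from -0.024 to 0.257 at day 0, -0.080 to 0.189 at day 7, -0.10 to 0.19 and -0.16 to 0.11 in the wild-type and knockout changes and -0.213 to 0.079 in the interaction. Txnrd1 ranged from -0.037 to 0.0997 at day 0, Gclc from -0.10 to 0.10 and Gclm from -0.011 to 0.117 at day 7, Srxn1 from -0.105 to 0.042 in the wild-type change and Nfe2l2 from -0.075 to 0.018 in the knockout's. Hmox1 ranged from -1.18 to 1.13 at day 21 as labelled and from -1.05 to 0.085 between day 21 and day 7.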
